A study of Mus musculus with 12 samples.

Results

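The constitutive proteasome genes of mouse lung and lung tumours were taken by name: every probe set that the platform annotation pairs with a single symbol made of Psm, a letter from a to g and a number, without the interferon-induced subunits Psmb8, Psmb9 and Psmb10. The rule found 46 of the 18193 named genes on the array, measured by 99 of 45037 probe sets, and each gene was represented by its probe set with the highest mean signal over all arrays. Of these 46 genes, 14 encode the catalytic core, 6 the ATPases of the regulatory cap, 11 its other subunits, 4 activators and an inhibitor, and 7 assembly chaperones. The remaining 4 do not belong to the proteasome of most tissues. Psma8 and Psmb11 are core subunits of testis and thymus, and Psmc3ip and Psme3ip1 match by name only, being a recombination factor and a protein that interacts with Psme3. Psme2, the partner of Psme1, was not counted because its probe set carries several symbols.

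The tissues were 6 spontaneous lung tumours and 6 normal lungs from B6C3F1 mice aged 2 years, a hybrid strain used in carcinogenicity bioassays. The mice came from a National Toxicology Program bioassay and the samples had no treatment. RNA of whole frozen tissue was hybridised to 1-colour Affymetrix arrays, and signals were deposited as linear intensities. Whether each array stands for its own animal is not stated, nor is sex, and p-values therefore describe only how these samples scatter, which may be technical.

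The proteasome is the protease that breaks down proteins tagged with ubiquitin. Its core is a barrel of stacked alpha and beta rings, in which the beta subunits Psmb5, Psmb6 and Psmb7 carry the active sites. A cap with a ring of ATPases and a lid of other subunits receives the tagged protein, removes the ubiquitin and threads the chain into the core. Interferon replaces the active subunits with Psmb8, Psmb9 and Psmb10, which gives the immunoproteasome that makes peptides for antigen presentation. When the proteasome is overloaded, the transcription factor Nfe2l1 (Nrf1) raises the constitutive genes through antioxidant response elements.

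That element, written TGACNNNGC and searched on both strands, was found in the 250 bases before the start of 5 of the 38 members whose promoters the RefSeq table for GRCm38.p6 holds. The share of 13.2% compares with 11.5% of all 27025 genes in the table. The windows of Psmb5 and Psmb6, active-site genes called higher in tumours, are shown first, at chr14:54617996-54618245 on the minus strand and chr11:70525107-70525356 on the plus strand. They are printed 5′ to 3′ along the gene, with the matching letters in capitals.
Psmb5: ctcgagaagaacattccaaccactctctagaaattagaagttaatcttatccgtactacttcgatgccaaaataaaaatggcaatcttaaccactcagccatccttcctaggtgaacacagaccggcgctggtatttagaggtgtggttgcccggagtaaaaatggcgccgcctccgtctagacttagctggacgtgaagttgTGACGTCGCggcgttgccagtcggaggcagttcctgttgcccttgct
Psmb6: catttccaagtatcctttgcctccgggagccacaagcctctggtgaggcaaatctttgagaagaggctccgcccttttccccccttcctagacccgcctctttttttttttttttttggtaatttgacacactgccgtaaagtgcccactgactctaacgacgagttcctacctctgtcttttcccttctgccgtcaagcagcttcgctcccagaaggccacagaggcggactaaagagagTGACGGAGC
In Psmb5 the match ended 38 bases before the start, and in Psmb6 it ran up to the start itself. The other 3 matches are shown with up to 15 flanking bases each, because they lie at genes called higher (Psmc6), lower (Psmd9) and not called (Psmd12).
Psmc6: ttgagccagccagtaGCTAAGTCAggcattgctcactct
Psmd12: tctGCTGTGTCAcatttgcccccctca
Psmd9: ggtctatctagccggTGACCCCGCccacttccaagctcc
These stretches lie at chr14:45329582-45329620, chr11:107479278-107479304 and chr5:123228144-123228182, all on plus-strand genes, and the matches in Psmc6 and Psmd12 read on the reverse strand. They end 218, 238 and 22 bases before the start in Psmc6, Psmd12 and Psmd9. Of the members with a promoter in the table, 3 of 16 called higher in tumours held the element (18.8%), against 2 of the other 22 (9.09%). CCAAT, the box bound by NF-Y, was found on either strand in 15 of 38 members (39.5%), against 37.5% of all genes in the table. It was in 5 of the 16 members called higher (31.2%), against 10 of the other 22 (45.5%). No match of one motif overlapped a match of the other, and a match is a description of letters, not of binding.

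Some arrays stood apart from their group. The Y-linked gene Eif2s3y read 740.5 to 1638 in tumours 1, 2, 3 and 5 and 27.4 or less on the other 8 arrays, while Xist, which is transcribed from the inactive X chromosome of females, read 47.1 to 109.3 in those 4 tumours and 7877 to 12621 on the other 8. The sexes were thus unevenly spread over the groups, with the Y-linked signal in 4 of 6 tumours and in none of the 6 normal lungs. Albumin (Alb), a liver transcript, read 13843 in normal lung 2 and 13722 in normal lung 4, while no other normal lung exceeded 2069, and the tumours reached up to 4901 in tumour 5. Neutrophil markers summed to 184741 in normal lung 1, against 3426 to 22927 in the other normal lungs, and B cell markers to 12770 in normal lung 3, against 1093 to 2291 in the others.

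Proteasome genes were more often higher than lower in tumours, by modest amounts. In limma with Benjamini-Hochberg adjustment over all probe sets, at an adjusted p under 0.05, 18 of the 46 members rose (39.1%) and 1 fell (2.17%). Over all named genes, 12.2% were called higher and 17.5% lower. The median difference of the members was 0.25 on the log2(signal + 16) scale, against -0.08 over all genes, and single members ran from -0.68 for Psma8 to 0.78 for Psmd8. The tumour arrays lay wholly above the normal lungs for 12 members, or wholly below for Psmd9, where 6.77% of all genes lay wholly above and 11.8% wholly below.

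**Figure D1:**
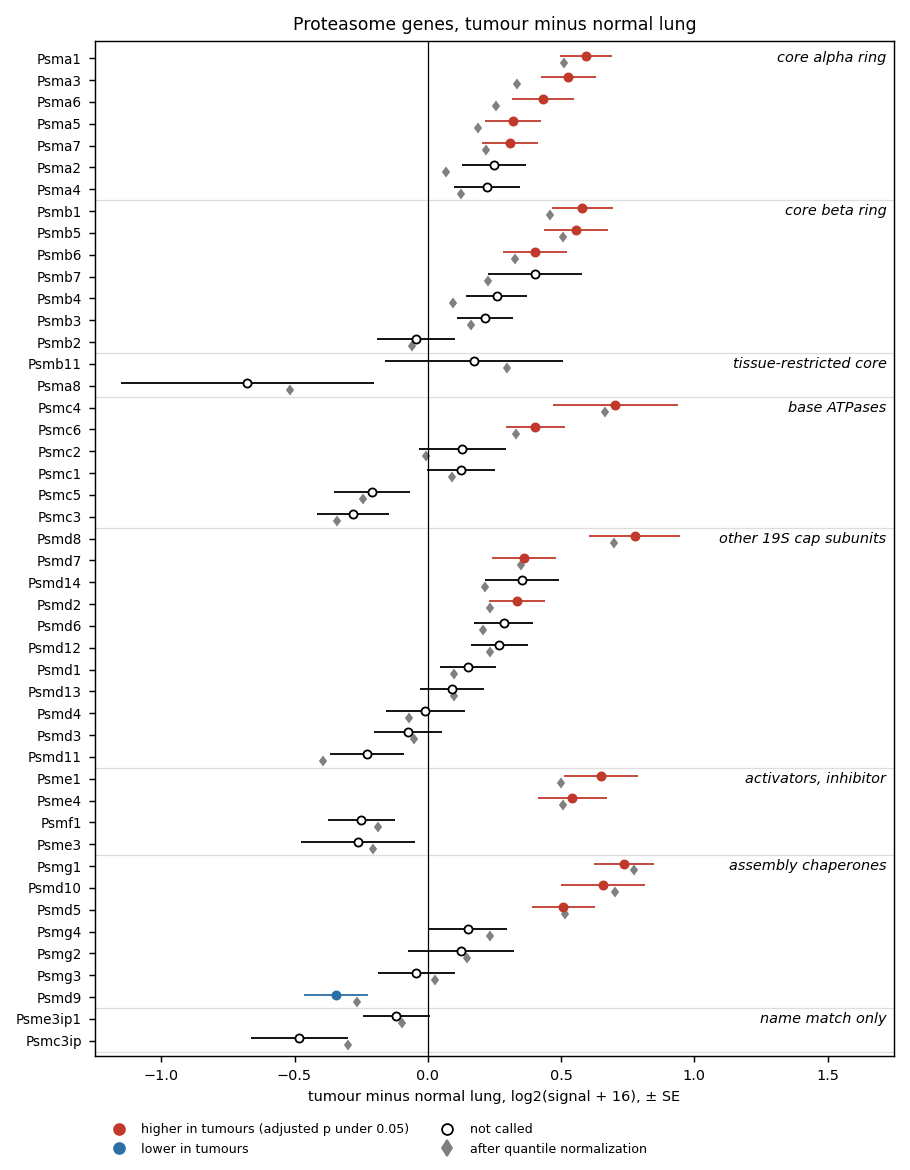
Difference of tumours from normal lungs for each of the 46 members on the log2(signal + 16) scale, by role. Circles with bars are the values as deposited ± SE, filled where the adjusted p is under 0.05 (red higher, blue lower), and diamonds are the values after quantile normalization; 18 circles are red and 1, Psmd9, is blue.

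Bright genes were called more often in general. Among the 7535 genes at least as bright as Psmg4, the dimmest of the 42 members in the named roles, 21.1% were called higher and 22.0% lower, with a median of 0.02, whereas 18 of those 42 members were called higher (42.9%), with a median of 0.28. As no set was tested against another, these shares stand as descriptions.

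The alpha ring, which forms the gate and the docking surface of the core, had 5 of 7 genes that rose. All 7 had positive differences, with a median of 0.32. Psma1 had signals of 4013, 4205, 3944, 3799, 3920 and 3853 in the 6 tumours, against 2422, 2582, 2431, 2357, 2947 and 3042 in the 6 normal lungs. The tumours were tightly grouped and every one lay above every normal lung. The mean was 3956 ± 143 in tumours and 2630 ± 293 in normal lungs (SD, n = 6 each), a log2 difference of 0.59 ± 0.10 (SE) and the smallest adjusted p of the alpha ring (0.000378).

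Psma3 and Psma6 also separated the groups completely. Psma3 ran from 9340 to 11826 in tumours (median 10476) and from 6871 to 7711 in normal lungs (median 7145), a difference of 0.53 ± 0.10 with an adjusted p of 0.00161. Psma6 differed by 0.43 ± 0.12 (adjusted p = 0.0134), and lay between 6107 and 8842 in tumours and between 4783 and 5738 in normal lungs. Psma5 and Psma7 rose less, by 0.32 and 0.31, with adjusted p-values of 0.039 and 0.047, and 1 or 2 normal lungs reached into the tumour range.

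Psma4 had the largest adjusted p of the ring. Its signal was 3058 to 5174 in tumours (median 3953) and 3049 to 3800 in normal lungs (median 3456), so the groups overlapped, and the difference was 0.22 ± 0.12 (adjusted p = 0.227). Psma2 differed by 0.25 ± 0.12 (adjusted p = 0.162), and tumour 2 alone reached 8795 against 5380 to 6118 in the other tumours.

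Among the beta genes 3 of 7 rose, with a median difference of 0.40 for the ring. Psmb1, a structural beta subunit, ran from 4457 to 5916 in tumours (median 5259) and from 3024 to 4156 in normal lungs (median 3453). No normal lung reached a tumour, and the difference of 0.58 ± 0.11 had the smallest adjusted p of the ring (0.00162).

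The active-site genes each had a positive difference. Psmb5, which carries the chymotrypsin-like activity, had signals of 3161, 3969, 2511, 2666, 3101 and 2951 in the tumours, against 2024, 2091, 2018, 2024, 2385 and 1824 in the normal lungs. Again the groups did not overlap, and the mean was 3060 ± 511 in tumours and 2061 ± 183 in normal lungs (SD, n = 6 each). The difference was 0.56 ± 0.12 (adjusted p = 0.00286). Psmb6, with the caspase-like site, ran from 3146 to 4346 in tumours (median 3623) and from 2342 to 3210 in normal lungs (median 2791), where 2 normal lungs exceeded the lowest tumour, and it differed by 0.40 ± 0.12 (adjusted p = 0.0244).

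Psmb7, with the trypsin-like site, had the widest spread of the core. It ran from 5022 to 10335 in tumours (median 8344) and from 4581 to 6582 in normal lungs (median 6142). Tumours 1 and 4 lay within the normal range and the other 4 above it, and the difference of 0.40 ± 0.18 was not called (adjusted p = 0.116). Without tumour 4 it was 0.53, with an adjusted p of 0.0261.

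Psmb2 was the core gene with a negative difference. Its signal ran from 1243 to 2219 in tumours (median 1516) and from 1368 to 1900 in normal lungs (median 1699). Tumours 2 and 6 were above all normal lungs and tumours 3 and 4 below them, giving -0.04 ± 0.15 (adjusted p = 0.868). For the core as a whole, 8 of 14 genes rose (57.1%) and none fell, with a median of 0.36. Among the 2794 genes at least as bright as Psmb2, the dimmest core member, 26.6% were called higher and 21.6% lower, with a median of 0.10.

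**Figure D2:**
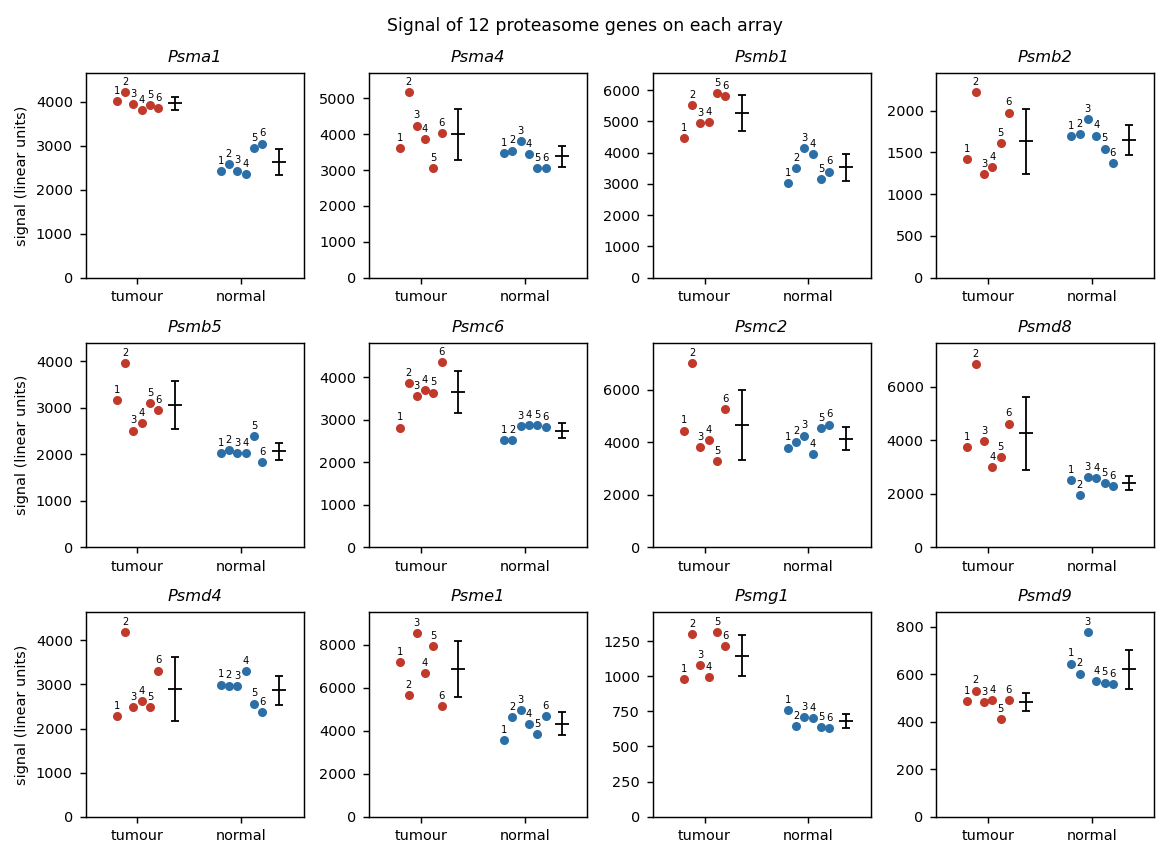
Signal in linear units of 12 members on each array, tumours (red) left of normal lungs (blue), numbered by replicate, with the mean and SD of each group. Tumours and normal lungs do not overlap for Psma1, Psmb1, Psmb5, Psmd8, Psme1, Psmg1 and Psmd9, and overlap for Psma4, Psmb2, Psmc2, Psmc6 and Psmd4.

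The ATPases of the cap, which unfold the substrate, were less uniform. Of 6 genes 2 rose (33.3%), none fell, and 2 had negative differences that did not pass the test, with a median of 0.13. Among the 7535 bright genes 21.1% were called higher. After quantile normalization 1 of the 6 rose (16.7%), with a median of 0.04, against 21.2% of those bright genes. As deposited, Psmc6 had the smallest adjusted p (0.0147). It ran from 2814 to 4359 in tumours (median 3662) and from 2519 to 2866 in normal lungs (median 2835). Tumour 1 lay within the normal range and the other 5 tumours above it, for a difference of 0.40 ± 0.11. Psmc2 had the largest adjusted p (0.623), with 3292 to 7031 in tumours (median 4261), 3549 to 4671 in normal lungs (median 4140) and a difference of 0.13 ± 0.16. Its groups overlapped, with tumours 2 and 6 above all normal lungs.

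Psmc4 rose by 0.70 ± 0.23 (adjusted p = 0.0399), although its normal lungs were uneven. It had signals of 2559, 2306, 3293, 2471, 2545 and 4246 in the tumours, against 1156, 1185, 2077, 1361, 2916 and 2407 in the normal lungs. Normal lungs 5 and 6 fell in the tumour range, while lungs 1, 2 and 4 lay between 1156 and 1361. A separate, dimmer probe set for Psmc4 gave 0.21 (adjusted p = 0.203). Psmc3 and Psmc5 gave -0.28 and -0.21 (adjusted p = 0.159 and 0.332), and without tumour 2 the Psmc3 difference became -0.37, with an adjusted p of 0.0371.

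In the rest of the cap, 3 of 11 genes rose (27.3%) and none fell, with a median of 0.27. Among the 7535 bright genes 21.1% were called higher. After quantile normalization 2 of the 11 rose (18.2%) and 1 fell (9.09%), against 21.2% higher and 22.6% lower among those bright genes. As deposited, Psmd8, a lid subunit, had the largest difference of any member. Its signals were 3751, 6834, 3955, 2992, 3359 and 4622 in the tumours, against 2521, 1955, 2629, 2585, 2389 and 2290 in the normal lungs. Every tumour lay above every normal lung, with tumour 2 far above the other tumours, and the difference was 0.78 ± 0.17 (adjusted p = 0.00343), 1.71-fold. Psmd2, a scaffold of the base, rose by 0.33 ± 0.10 (adjusted p = 0.0285) without overlap, and Psmd7, the lid partner of Psmd14, by 0.36 ± 0.12 (adjusted p = 0.0398).

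Psmd14 and Psmd4, which both handle ubiquitin, did not pass the test on their brightest probe sets. Psmd14, the enzyme that cuts ubiquitin off the substrate, ran from 3999 to 6845 in tumours (median 4894) and from 3514 to 4340 in normal lungs (median 4069). Tumours 2, 3, 5 and 6 lay above all normal lungs, and the difference was 0.35 ± 0.14 (adjusted p = 0.0823). Without tumour 1 it was 0.42, with an adjusted p of 0.0395. Psmd4, a ubiquitin receptor, had the largest adjusted p of the cap (0.977), with 2279 to 4192 in tumours (median 2559), 2380 to 3309 in normal lungs (median 2968) and a difference of -0.01 ± 0.15. Its groups overlapped, with tumours 2 and 6 above all normal lungs and tumour 1 below them, and a further probe set for it was higher in tumours by 0.36 (adjusted p = 0.0164).

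Psmd12, also of the lid, separated the groups without passing the test (0.27 ± 0.11, adjusted p = 0.0848). Psmd6 was at 0.28 (adjusted p = 0.0795) and at 0.33 without tumour 1 (adjusted p = 0.0461). Psmd11, whose protein is an elongated lid subunit, gave -0.23 ± 0.14 (adjusted p = 0.272), the lowest of these 11 genes.

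The activators divided. Psme1, a subunit of the interferon-inducible ring activator, had signals of 7212, 5667, 8564, 6687, 7940 and 5150 in the tumours, against 3573, 4640, 4963, 4302, 3843 and 4684 in the normal lungs. All tumours exceeded all normal lungs, and the mean was 6870 ± 1310 in tumours and 4334 ± 535 in normal lungs (SD, n = 6 each). The difference was 0.65 ± 0.14 (adjusted p = 0.00307). Psme4, a single-chain nuclear activator, rose by 0.54 ± 0.13 (adjusted p = 0.00605), with 2164 to 3392 in tumours (median 2753) and 1665 to 2128 in normal lungs (median 1823), also without overlap.

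Psme3, which forms the nuclear ring activator, ran from 369.4 to 958.2 in tumours (median 511) and from 543.2 to 864.5 in normal lungs (median 699.5). Tumour 2 exceeded every normal lung and 4 tumours lay below them all, and the difference was -0.26 ± 0.21 (adjusted p = 0.427). Psmf1, which inhibits the core in vitro, ran from 550.6 to 709.3 in tumours (median 614.8) and from 601.2 to 918.2 in normal lungs (median 719.3). Its groups overlapped, with tumours 1 and 4 below all normal lungs, and the difference was -0.25 ± 0.13 (adjusted p = 0.174). Dimmer probe sets gave 0.26 and -0.11 for Psme3, and 0.30, -0.05 and -0.06 for Psmf1, none of them called.

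Of the 7 assembly genes 3 rose (42.9%) and 1 fell (14.3%), with a median of 0.15. Among the 7535 bright genes 21.1% were called higher and 22.0% lower. After quantile normalization 3 of the 7 rose and none fell, against 21.2% higher and 22.6% lower among those bright genes. As deposited, Psmg1, a chaperone of alpha ring assembly, had signals of 981.7, 1298, 1078, 995.1, 1313 and 1214 in the tumours, against 757.3, 642.4, 706.4, 704.1, 638.3 and 629.1 in the normal lungs. The groups lay well apart, with a mean of 1147 ± 148 in tumours and 679.6 ± 51.0 in normal lungs (SD, n = 6 each). The difference of 0.73 ± 0.11 had the smallest adjusted p of all 46 members (0.000196). Psmg3, which works in the same step, had the largest of the assembly genes (0.868), with 445.4 to 725.7 in tumours (median 616.9), 503.3 to 740.2 in normal lungs (median 633.2) and -0.04 ± 0.14.

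The chaperones of the ATPase ring went in both directions. Psmd10, also known as gankyrin and named as an oncoprotein in liver, ran from 820.6 to 1301 in tumours (median 1096) and from 451.2 to 875.2 in normal lungs (median 712.3). Tumour 5 alone fell within the normal range, and the difference was 0.66 ± 0.16 (adjusted p = 0.00638). Psmd5 rose by 0.51 ± 0.12 (adjusted p = 0.00517), with 1278 to 1687 in tumours and 918.1 to 1247 in normal lungs.

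Psmd9, the last of these chaperones, fell. It had signals of 486.4, 531.3, 484.5, 490.6, 412.9 and 492.4 in the tumours, against 645.4, 603, 779.3, 571.5, 565.4 and 558.1 in the normal lungs. All tumours were below all normal lungs, and the difference was -0.35 ± 0.12 (adjusted p = 0.0489). The adjusted p stood just inside the threshold and passed it in 1 of the 12 analyses that each left out an array, where it ranged from 0.04 to 0.115.

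The 2 tissue-restricted genes were dim, in the lowest 24.8% (Psma8) and 9.26% (Psmb11) of tested probe sets by mean signal. Psma8 ran from 3.03 to 98.1 in tumours and from 12.2 to 80.1 in normal lungs, and Psmb11 from 3.07 to 53.0 in tumours and from 4.27 to 35.1 in normal lungs. Neither was called. The 2 genes that match by name only gave -0.48 ± 0.18 (Psmc3ip, adjusted p = 0.0677) and -0.12 ± 0.13 (Psme3ip1, adjusted p = 0.562). Without tumour 5, Psmc3ip gave -0.55 and was called lower.

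Proteasome genes varied more among the tumours than among the normal lungs. Measured from the mean of the normal lungs, the median over the 46 members was 0.06, 0.49, 0.14, 0.13, 0.28 and 0.33 in tumours 1 to 6, against -0.06 to 0.07 in the normal lungs. Tumour 2 had the highest tumour signal for 20 members, tumour 6 for 14 and tumour 5 for 10, while the lowest fell to tumour 1 for 16 and to tumour 4 for 15. Between 18 members (tumour 1) and 34 members (tumour 2) lay above all 6 normal lungs. No such count over all genes stands beside these numbers, so they only describe the members.

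The core, the ATPases, the other cap subunits and the assembly genes all had their highest medians in tumours 2 and 6. Within the core this held for the alpha ring, at 0.64 and 0.49. The beta ring was highest in tumours 5 and 2, at 0.59 and 0.53, and stood at 0.29 in tumour 6. The level of the other tumours differed by role. The core median was positive in each tumour, at values of 0.35, 0.62, 0.31, 0.19, 0.35 and 0.43 in tumours 1 to 6. The ATPases stood at 0.30 in tumour 2 and 0.51 in tumour 6, and between -0.05 and -0.03 in the other 4 tumours. The other cap subunits stood at 0.48 in both tumours 2 and 6 and between 0.05 and 0.18 elsewhere. The assembly genes were highest in tumour 6 at 0.60. With tumours 2 and 6 left out, 13 of the 18 members called higher were still called, and within the cap 1 of 11 was called in place of 3.

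Other gene lists also varied between tumours. The epithelial markers had medians of 0.88, 2.62, 1.69, 0.85, 1.16 and 2.14 over the normal mean in tumours 1 to 6. Tumours 2 and 6 were thus highest and tumours 1 and 4 lowest, as for the median over all proteasome members. The core median, at 0.35, 0.62, 0.31, 0.19, 0.35 and 0.43 in tumours 1 to 6, followed this order only in part. In the core, tumours 2 and 6 were highest and tumour 4 lowest, but tumour 1 was not among the lowest. The cell cycle list, whose members drive replication and mitosis, was highest in tumours 6 and 5. Of its 18 measured genes 14 rose, with a median of 1.30, and its median by tumour was 0.50, 1.40, 1.28, 0.79, 1.63 and 1.93. Tumours 1 and 4, which between them had the lowest tumour signal for most of all proteasome members, were also the lowest for this list. The core shared this for tumour 4 but not for tumour 1. The part of either list in the proteasome result was not tested.

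**Figure D3:**
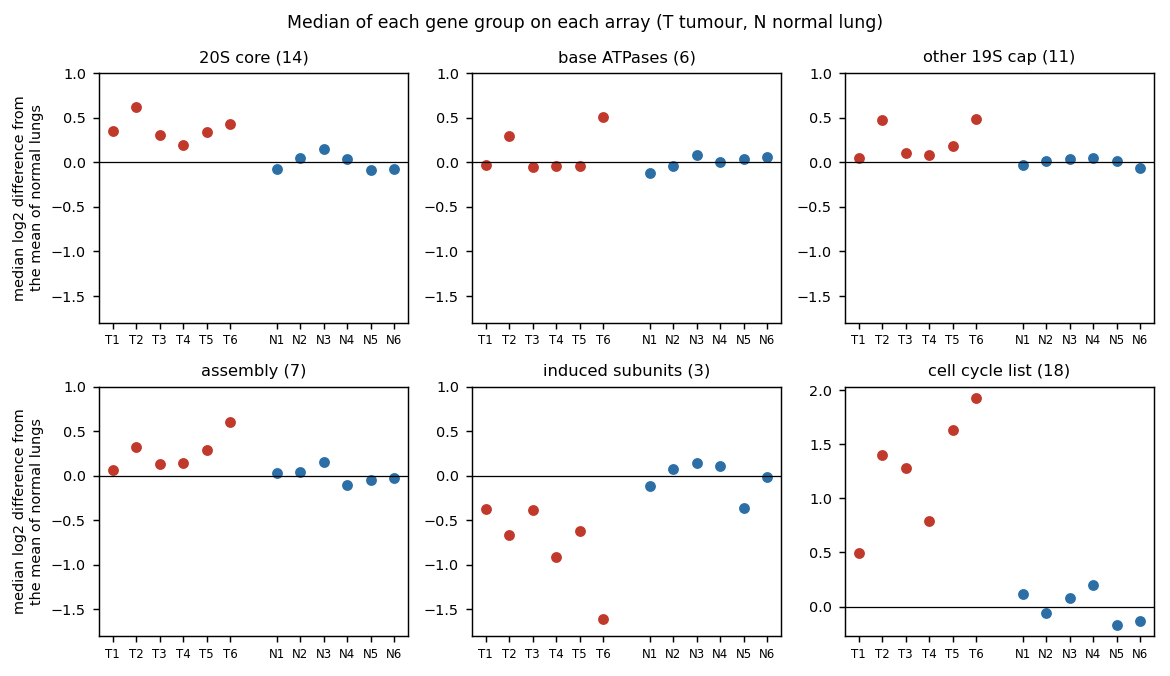
Median log2 difference from the mean of the normal lungs on each array, for the core, the ATPases, the other cap subunits, the assembly genes, the 3 induced subunits and the cell cycle list, tumours T1 to T6 (red) left of normal lungs N1 to N6 (blue). The core lies between 0.19 and 0.62 in tumours, the ATPases stand out in T2 and T6 only, and the cell cycle panel has its own scale.

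The result depended in part on how the arrays were scaled. Tumour arrays had lower median signals than normal lungs as deposited, 126.1 to 149.8 against 151.4 to 164.4 units. After quantile normalization, which gives every array the same distribution, 13 members rose and 1 fell, against 13.9% higher and 16% lower over all genes. All 13 were among the 18 called before. The member that fell was Psmd11, on its brightest probe set (-0.39, adjusted p = 0.0267), in place of Psmd9 (-0.27, adjusted p = 0.127). The median of the members was then 0.20 against 0.01 over all genes, and 8 members lay wholly above the normal lungs, where 7.43% of all genes did so (10.7% lay wholly below). Among the 7535 bright genes, 21.2% were then higher and 22.6% lower.

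Within the core, quantile normalization left 5 of 14 called higher (35.7%), Psma1, Psma3, Psmb1, Psmb5 and Psmb6, with a median of 0.22. Of the 2794 genes as bright as the core, 22.0% were then called higher and 25.5% lower. Psma5, Psma6 and Psma7 dropped to adjusted p-values of 0.182, 0.0905 and 0.111. With each array centred on its own median the change went the other way. That scaling moved the median of all genes to 0.11, 26 members rose and none fell, against 19.2% of genes higher and 12.9% lower, and 13 of 14 core genes were called. Among bright genes the shares higher and lower were 32.3% and 15.8% of the 7535, and 38.2% and 16.3% of the 2794.

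Called members differed in how firmly they stood. Of the 18 that rose, 12 were called in all 12 analyses that each left out an array. Psmb5, Psmc6, Psmd5, Psmd8, Psmd10, Psme1, Psme4 and Psmg1 were also called under all 10 planned changes of the processing. With the log-scale signal of Eif2s3y on each array as a covariate, 7 of the 18 higher calls remained. These were Psma1, Psma3, Psmb1, Psmc6, Psmd5, Psmd10 and Psmg1, so that Psmb5, Psmd8, Psme1 and Psme4 lost theirs. The covariate was the measured signal and not a label of sex, so it also varied among the arrays with low Eif2s3y. Without the 4 tumours that expressed Eif2s3y 10 remained, and Psme1 and Psme4 were again lost. Without normal lungs 2 and 4, 12 remained and no ATPase was called, Psmc6 included. Psmd5, Psmd10 and Psmg1, all assembly chaperones, were called in every one of these analyses. The 6 that were lost at least once were Psma5, Psma7, Psmb6, Psmc4, Psmd2 and Psmd7. Psma5 and Psma7 each lost their call without tumour 1 or 6 or without normal lung 1, 2, 4, 5 or 6, Psma5 also without tumour 3 or 5, and Psma7 also without tumour 2, with adjusted p-values of up to 0.0866 and 0.0922. Psmb6 did so without tumour 5 or normal lung 1, 5 or 6 (up to 0.0607), and Psmd2 without tumour 2 or 6 or normal lung 1, 2 or 6 (up to 0.0616). Psmc4 lost its call without tumour 1, 3, 5 or 6 or normal lung 1, 2 or 4 (up to 0.0951). Psmd7 did so without tumour 2, 4, 5 or 6 or normal lung 1, 2, 3 or 4 (up to 0.0852).

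Probe sets of the same gene did not always give the same size or sign. Several probe sets measured 26 of the 46 genes. Of the 53 not used to represent a gene, 10 were called higher, none lower and 43 neither, and no gene had probe sets called in opposite directions. Over all tested probe sets 10.1% were called higher and 13.9% lower. Psmb4, a structural beta subunit, showed the widest gap. Its brighter probe set averaged 7765 in tumours and 6449 in normal lungs (0.26, adjusted p = 0.122), and the other 4936 in tumours and 1987 in normal lungs (1.33, adjusted p = 3.77e-05). Psmd6 likewise had a second probe set at 0.71 (adjusted p = 0.0231). The sign changed for some genes. Psmc2 gave 0.13 on its brightest probe set and -0.35 and -0.10 on the others. Psmd11 gave -0.23 on its brightest probe set and ran from -0.04 to 0.64 on the others. No probe set of Psmc2 or Psmd11 was called as deposited.

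Of the induced subunits, 2 of 3 fell and none rose. Psmb9 ran from 391.5 to 1227 in tumours (median 1030) and from 1435 to 2239 in normal lungs (median 1888), and Psmb10 from 926.8 to 1585 in tumours (median 1310) and from 1897 to 2277 in normal lungs (median 2036). Neither overlapped, and they fell by 1.02 ± 0.23 (adjusted p = 0.00426) and by 0.68 ± 0.13 (adjusted p = 0.00151) on the log2 scale. Psmb8 ran from 774.6 to 2679 in tumours (median 1894) and from 1723 to 3036 in normal lungs (median 2445), overlapped, and differed by -0.40 ± 0.25 (adjusted p = 0.282).

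Within each array, the induced subunit was set against its constitutive counterpart, a difference that hardly depends on scaling. In two-sided exact permutation tests over the arrays, adjusted over the 3 pairs, Psmb9 minus Psmb6 gave a difference of tumours from normal lungs of -1.42 ± 0.24 (adjusted p = 0.00325) and Psmb10 minus Psmb7 gave -1.08 ± 0.20 (adjusted p = 0.00325). In both pairs all 6 tumours lay below all normal lungs, and the unadjusted p of 0.00216 is the smallest that these permutations can give. Psmb8 minus Psmb5 gave -0.96 ± 0.33, with an exact permutation adjusted p of 0.0152 and 3 of 6 tumours below all normal lungs. Leaving out tumours 2 and 6 gave -0.56 for that pair (adjusted p = 0.0667), and leaving out normal lungs 2 and 4 gave -0.86 (adjusted p = 0.0571, exact permutation tests).

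**Figure D4:**
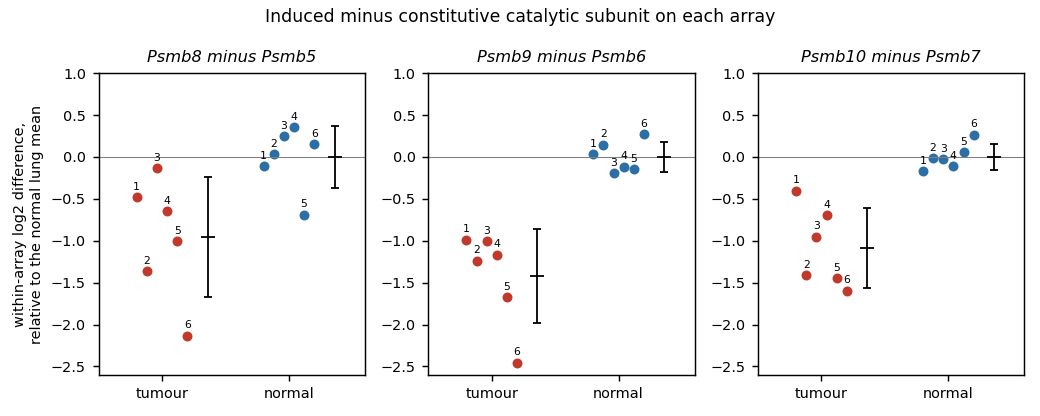
Within-array log2 difference of each induced subunit from its constitutive counterpart, relative to the mean of the normal lungs, with tumours (red) left of normal lungs (blue), numbered by replicate, and the mean and SD. All 6 tumours lie below all 6 normal lungs for Psmb9 minus Psmb6 and Psmb10 minus Psmb7, and 3 of 6 for Psmb8 minus Psmb5.

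Genes that share the interferon control of these subunits were lower in most tumours. Of 12 measured interferon-response genes 9 fell and none rose, with a median of -1.12, Gbp2 (-1.55, adjusted p = 0.000342) and Ifit2 (-1.17, adjusted p = 0.00051) having the smallest adjusted p-values. Tumour 2 stood apart, with a median over these genes of -0.03 from the normal mean, against -1.72 to -1.07 in the other 5 tumours, and it exceeded all normal lungs for 3 of them. Of 10 genes of peptide transport and class I presentation 5 fell and 1 rose, with a median of -0.53, whereas 5 fell and none rose after quantile normalization, and 2 fell and 1 rose with median centring. Tap2, a subunit of the peptide transporter, gave -0.78 (adjusted p = 0.00565), and Pdia3, a disulphide isomerase of the loading complex, 0.40 (adjusted p = 0.0245), which became 0.14 after quantile normalization (adjusted p = 0.354). Psme1, which interferon also induces, did not go with them.

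Among 8 measured genes that regulate the constitutive set, 1 rose (12.5%) and 2 fell (25.0%). Over all named genes 12.2% were called higher and 17.5% lower, and among the 7535 bright genes 21.1% and 22.0%. Nfe2l1 had signals of 1325, 1088, 1343, 1159, 1116 and 1199 in the tumours, against 2141, 2450, 2335, 2017, 1938 and 1738 in the normal lungs. All tumours lay below all normal lungs, a difference of -0.79 ± 0.11 (adjusted p = 8.13e-05). Mafk, a small Maf partner that binds the element with it, gave -1.02 ± 0.14 (adjusted p = 8.94e-05). Nfe2l2 (Nrf2), which binds the same element, rose by 0.81 ± 0.12 (adjusted p = 0.000154). Ngly1 and Vcp, which release and process the Nfe2l1 protein, gave -0.16 and -0.12 (adjusted p = 0.303 and 0.536). These are transcript signals, and the activity of the factors was not measured.

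Of 8 genes whose proteins bind or help to build the proteasome, 2 rose (25.0%) and none fell, with a median of 0.21. Among the 7535 bright genes 21.1% were called higher and 22.0% lower. The 2 that rose were the deubiquitinases of the cap, Usp14 (0.65 ± 0.21, adjusted p = 0.0381) and Uchl5 (0.46 ± 0.16, adjusted p = 0.0464). Usp14 lost its call without tumour 2 or 3 or normal lung 1, 3, 5 or 6 (adjusted p up to 0.0805), and Uchl5 without tumour 2, 5 or 6 or any normal lung but the third (up to 0.106). Usp14 reached 4250 in tumour 6 and stayed between 1530 and 2491 in tumours 1 to 5, with the normal lungs between 1127 and 1660. Pomp, the maturation factor of the core, ran from 3706 to 5896 in tumours (median 4102) and from 4252 to 5024 in normal lungs (median 4389), with overlap and a difference of -0.06 ± 0.12 (adjusted p = 0.765). Of 7 ubiquitin-activating and shuttle genes, 2 rose (28.6%) and none fell, against the same 21.1% and 22.0% of bright genes. Ubqln2, a shuttle factor, rose by 0.71 ± 0.12 (adjusted p = 0.000507) and Uba6, an activating enzyme, by 0.67 ± 0.17 (adjusted p = 0.00868).

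The tissues compared also differed in make-up, and in whole tissue a change in the number of cells of a type and a change in RNA per cell cannot be told apart. All 10 endothelial markers fell (summed signal 4124 to 11463 in tumours, 42988 to 59163 in normal lungs), as did all 6 smooth muscle markers (2906 to 7978 in tumours, 14867 to 26761 in normal lungs). Epithelial markers rose in 7 of 8 cases (45886 to 132974 in tumours, 24097 to 28340 in normal lungs) and macrophage markers in 5 of 8, with 1 lower (21104 to 32492 in tumours, 10558 to 17856 in normal lungs). T and NK cell markers fell in 5 of 9 cases (463.8 to 2945 in tumours, 2035 to 4098 in normal lungs) and B cell markers in 3 of 5 (448.2 to 1931 in tumours, 1093 to 12770 in normal lungs). None of 6 neutrophil markers was called (1984 to 9743 in tumours, 3426 to 184741 in normal lungs). No marker was at 0 on any array, but some were dim. Cd4 read 8.87 to 17.4 in tumours and 12.7 to 26.3 in normal lungs, and Lmod1, of smooth muscle, 6.66 to 39.8 in tumours. Of the 6 lung identity markers, Sftpb rose, Scgb1a1 and Ager fell, and none was near 0. After quantile normalization Ager alone of these was called (Sftpb adjusted p = 0.245, Scgb1a1 adjusted p = 0.0506), and the counts lower were 3 of 9 for T and NK cells and 2 of 5 for B cells. The part of these markers in the proteasome results was not tested.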

How the data were processed

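Total RNA of 6 tumours and 6 normal lungs was measured on 1-colour arrays. The deposited values are linear signal intensities from MAS5, per the submitters' processing notes; its settings are not given in the sources used here, so its scaling of each array enters every difference. The members and gene lists were chosen with earlier results of these data known. From 45101 probe sets 64 controls were left out; of the 45037 tested, 34945 had 1 symbol, 932 several and 9160 none. From the deposited intensities log2(signal + 16) was computed here and fitted with limma 3.58.1 under R 4.3.3, using lmFit and then eBayes with trend by mean signal, tumours against normal lungs, with Benjamini-Hochberg adjustment over all 45037 and a threshold of 0.05. The offset understates the change of dim genes. Scripts were tested on simulated data. Number of arrays, not depth, limits precision. Quantile normalization, median centring, other offsets, array weights, a filter on dim probe sets, the mean of a gene's probe sets and leaving out arrays were tried.

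Values per array are given, in each role, for the members with the smallest and the largest adjusted p, for members called lower and for a fixed list of active-site, activator and induced genes; other members given in detail (Psma3, Psma6, Psmc4, Psmb4 and those with exceptional arrays) were chosen after their values were seen. Tumours and normal lungs share replicate numbers, but same-numbered arrays did not deviate together (r from -0.0178 to 0.0217 over 6 pairs), so the numbers were not used as pairs.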

Additional observations from a re-analysis of the deposited data

Results flagged for a closer look

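In 7 of 98 groups of 6 arrays (the 46 members and the 3 induced subunits, in tumours and in normal lungs), 1 array lay far from the other 5 by Dixon's criterion, which chance meets in about 1 in 20 groups. Psmg2, an assembly chaperone, was at 2281 in tumour 6 and at 821.9 to 1133 in the other tumours. Psma2 was at 8795 in tumour 2 and at 5380 to 6118 in the others. Psmd5 was at 1278 in tumour 1, below 1584 to 1687 in the others, and Psmd9 at 412.9 in tumour 5, below 484.5 to 531.3. The induced subunits were lowest in tumour 6, with Psmb8 at 774.6 against 1790 to 2679 and Psmb9 at 391.5 against 905 to 1227 in the other tumours. In the normal lungs, Psmd12 was at 1895 in lung 1 and at 2056 to 2145 in the others.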

How the results depend on the processing

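The count of members higher (18) was 12 to 18 with 1 array left out, 7 with the Eif2s3y covariate and 10 without the arrays with Eif2s3y; these 2, like leaving out normal lungs 2 and 4 or tumours 2 and 6, were chosen after seeing the data. The count lower (1) was 0 to 2 with 1 array left out, 0 with the covariate, without those arrays, without normal lungs 2 and 4 and with median centring, 2 with the filter on dim probe sets or the mean of probe sets, and 3 without tumours 2 and 6. Core genes higher (8) numbered 5 to 9 with 1 array left out, 3 with the covariate, 4 without the arrays with Eif2s3y or with the mean of probe sets, 5 with quantile normalization or no trend, and 13 with median centring. ATPases higher (2) numbered 1 to 2 with 1 array left out, 0 without normal lungs 2 and 4, and 1 with array weights, no trend, quantile normalization, the covariate, without the arrays with Eif2s3y or without tumours 2 and 6. Other cap genes (3) numbered 1 to 5 with 1 array left out, 0 with the covariate, 1 without normal lungs 2 and 4, without tumours 2 and 6 or with no trend, and 6 with median centring. Activators (2) numbered 0 with the covariate or without the arrays with Eif2s3y. The assembly count stayed at 3 with 1 array left out. The median difference was 0.22 to 0.29 with 1 array left out and 0.44 with median centring. Psmb8 minus Psmb5 was -0.86 without normal lungs 2 and 4 and -0.56 without tumours 2 and 6. Psmd7 turned to -0.089 (adjusted p = 0.764) with the mean of its 3 probe sets, 2 of them dim. With the replicate number as a block, which does not pair the arrays, 14 members were higher and 0 lower, with 5 core genes. Causes were not tested, and fewer arrays give the left-out fits less power.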

Other observations

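Of 4 proteasome-related genes on mouse chromosome 18, 3 stood apart in tumour 6. From the mean of the normal lungs, Psmg2 was at 1.09 there and between -0.36 and 0.09 in the other tumours, Usp14 at 1.62 against 0.16 to 0.85, and Txnl1, a cap-bound thioredoxin-like protein, at 1.52 against 0.07 to 1.07. The other, the dim member Psma8, was at -0.45 there and highest in tumour 4 at 0.82. Over the 207 named genes of that chromosome at least as bright as Psmg4, the median was 0.41 in tumour 6 and -0.37 in tumour 5, and between -0.05 and 0.04 in tumours 1 to 4. Tumour 6 was the highest of the 12 arrays for 46.4% of them. On chromosome 12, which carries Psma3, Psma6 and Psmc1, the median over 277 genes was 0.27 in tumour 6 and between -0.04 and 0.06 in the others, and these 3 members were at 0.71, 0.75 and 0.68 in tumour 6, against at most 0.64, 0.64 and 0.20 in the other tumours. On chromosome 8, which carries Psmd7, the median over 409 genes was 0.35 in tumour 2 and 0.38 in tumour 5, against 0.03 to 0.11 in the other 4, while Psmd7 gave 0.47 in tumour 2, 0.60 in tumour 5 and 0.51 in tumour 6. Other genes there did not follow, with Psme3ip1 at 0.25 and -0.02 and Psmb10 at -0.67 and -0.62 in tumours 2 and 5. Medians of such size were also seen on other chromosomes. Chromosome 6 was at 0.41, 0.41 and 0.38 in tumours 4 to 6, and chromosome 4 at -0.40, -0.25 and -0.33 in tumours 3 to 5. Psmb2, on chromosome 4, was at -0.402, -0.315 and -0.03 in tumours 3 to 5. These chromosome medians were looked for after the tumour 6 values were seen, and their cause was not tested.

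Nfe2l3, a relative of Nfe2l1, was at 1312 in tumour 2 and 363.9 in tumour 6, between 2.32 and 79.4 in the other 4 tumours, and between 79.2 and 169.5 in the normal lungs (adjusted p = 0.778).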
